A study of Rattus norvegicus with 17 samples.

Results

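Peptidergic sensory neurons of the rat that carried much galanin mRNA were compared with peptidergic neurons of the same batch that carried little. A cell counted as peptidergic here when it had at least 30 CPM (counts scaled to 1e6 per cell) of both Clmp, an adhesion molecule of cell junctions, and Kit, a receptor tyrosine kinase. It also needed at least 2000 detected genes, at least 50000 unique molecular identifiers (UMIs, each standing for 1 captured RNA molecule) and together under 300 CPM of Sst and Nppb, the peptides of itch neurons. These limits left 176 of 1040 cells, in 15 of 16 batches. In each of the 10 batches with at least 9 such cells, the cells were ranked by Gal CPM and divided into 3 parts. The 45 cells at the top are called galanin-high here, the 45 at the bottom galanin-low, and the 57 between them were not compared. The other 29 cells lay in 5 smaller batches, which gave a comparison of their own.

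All cells came from the lumbar L4 and L5 dorsal root ganglia of adult naïve male Sprague-Dawley rats. After dissociation each neuron was picked by mouth pipette, and its polyadenylated RNA was counted at the 3' ends by a variant of Smart-seq2. The labels give a single group in 17 batches and no treatment, and their protocols describe both a plating of 15 minutes, with fluorescently labelled cells, and one of 72 hours, with cells that had neurites. Which batch had which is not stated, so every comparison was made within batches. At least 5 rats were used per time point, but nothing ties a batch to an animal. P-values therefore measure the spread between batches, which may be technical. Batch 21, with 40 labelled cells, was not used here, because the counts given for it were those of batch 20. Batches held 3812280 to 26065847 UMIs.

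Galanin is a neuropeptide that acts on 3 G protein-coupled receptors. Few sensory neurons of an intact adult ganglion make it, and cutting the peripheral nerve raises it strongly, together with the transcription factor Atf3, the small proline-rich protein Sprr1a and the growth cone protein Gap43. Dissociation cuts the axons of every cell, so no cell here had an intact axon. Peptidergic nociceptors are the pain-sensing neurons that release peptides such as CGRP (from Calca) and substance P (from Tac1).

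The sequence before the start of Gal, the gene that ranked the cells, is shown to give that ranking a place in the genome. The RefSeq table of build GRCr8 puts the 250 bases before the start of Gal at chr1:210084573-210084822 on the minus strand. Capitals mark a TATAAA run that begins 41 bases before the start and a TGACG run that begins 63 bases before it.
Gal promoter: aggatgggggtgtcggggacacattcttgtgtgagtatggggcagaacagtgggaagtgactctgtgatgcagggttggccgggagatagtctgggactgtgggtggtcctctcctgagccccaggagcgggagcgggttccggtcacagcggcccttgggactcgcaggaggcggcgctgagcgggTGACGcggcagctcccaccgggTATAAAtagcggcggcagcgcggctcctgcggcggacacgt
TATAAA, the core of the TATA box, was searched on the gene's strand and was present in 8.06% of 33469 promoter windows of this length. TGACG, the shorter part of the cyclic AMP response element, was searched on both strands and was present in 18.2%. The full element TGACGTCA (1.59% of promoters), the AP-1 motif TGANTCA (6.34%) and the STAT motif TTCNNNGAA (7.67%), each searched on both strands, were not found in these 250 bases.

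The 176 cells carried the markers of peptidergic neurons. Calca was at 1811 ± 339 CPM (SD, n = 15 batches), Adcyap1, the precursor of the peptide PACAP, at 679 ± 116 CPM and Tac1 at 472 ± 174 CPM. In P2rx3 cells, which had at least 100 CPM of the ATP-gated channel P2rx3 and lacked the Clmp and Kit levels, Calca was at 459 ± 120 CPM and Tac1 at 124 ± 61.3 CPM. The 8 listed peptidergic markers summed to 3931 CPM, against 1318 CPM in P2rx3 cells. Of these 8, Calcb alone went the other way. It was at 75.7 ± 66.7 CPM, against 142 ± 115 CPM in P2rx3 cells and 144 ± 117 CPM in all other cells. Genes listed as markers of other neurons were present too. The non-peptidergic list summed to 353 CPM, against 879 CPM in P2rx3 cells, with P2rx3 at 196 ± 49.8 CPM, Ret at 118 ± 39.3 CPM and the receptor Mrgprd at or near 0 CPM. The neurofilament-neuron list summed to 335 CPM, against 245 CPM in P2rx3 cells and 309 CPM in all other cells, with Nefh at 274 ± 61.2 CPM and the proprioceptor marker Pvalb at 13.9 ± 28.1 CPM. Of 17 listed glial markers, Kcnj10 and Ncmap were at 0 CPM and Sox10 was at 2.90 CPM. Fibroblast markers summed to 25.1 CPM, immune markers to 23.7 CPM and vessel markers to 13.4 CPM, against 1257 CPM for the glial list, which Pmp22 led at 790 CPM. Of 9 listed immune markers, Ptprc, C1qb and Tyrobp were at 0 CPM.

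Galanin mRNA was present in every one of the 176 cells, at 149 to 6311 CPM with a median of 2164 CPM and never fewer than 39 UMIs. Kept cells of other kinds had a median of 1303 CPM and P2rx3 cells 1174 CPM. After summing the UMIs of each side and batch, Gal was at 2063 to 4810 CPM in galanin-high sums (median 3539 CPM) and at 466 to 1702 CPM in galanin-low sums (median 814 CPM). The ratio of the means was 3.59, and the 2 sides did not overlap. The 2 sides were chosen by these Gal values, which are therefore given without a test. Cut points between sides differed between batches, as the plot of Gal per cell shows.

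**Figure D1:**
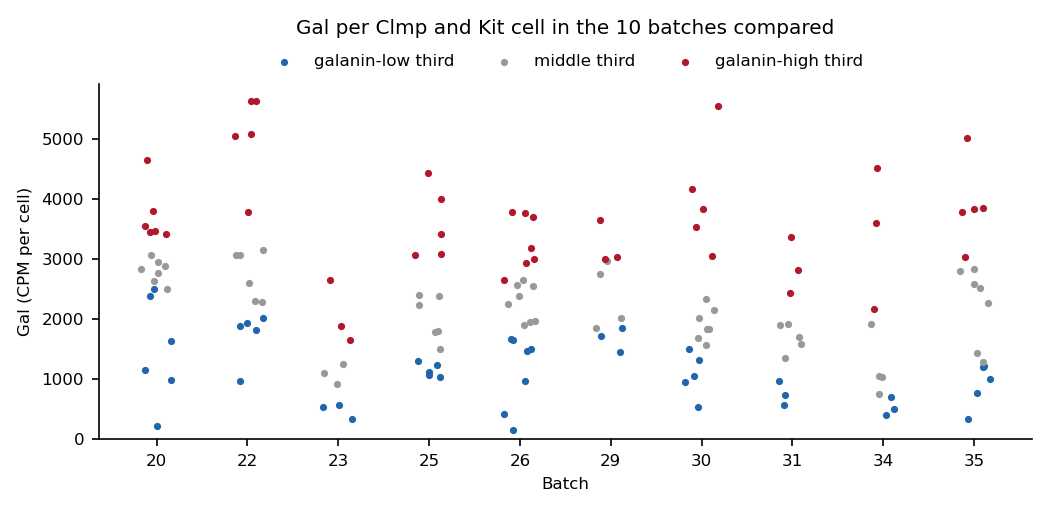
Gal in CPM (vertical axis) of each Clmp and Kit cell in the 10 batches compared (horizontal axis); each point is a cell, coloured by its place in the ranking of its batch. Galanin-high sums ran from 2063 to 4810 CPM and galanin-low sums from 466 to 1702 CPM.

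Of the 2 genes that set the gate, Kit was the higher on the galanin-high side. Clmp was at 140 ± 43.8 CPM in galanin-high and 156 ± 61.4 CPM in galanin-low sums (SD, n = 10 batches), and Kit at 256 ± 83.8 and 186 ± 84.0 CPM, a ratio of means of 1.38. In sums with scaling factors Kit was higher on the galanin-high side in 9 of 10 batches, by log2 ratios of up to 2.13 in batch 23 and 2.73 in batch 34 (1 CPM added). Both genes were used to choose the cells and get no test. Near the limits, the lowest member had 31.1 CPM of Clmp and the highest cell below the limit 28.8 CPM. For Kit these values were 30.6 and 25.7 CPM. The member with the fewest UMIs had 50131, and the member with the most Sst and Nppb 296 CPM.

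Galanin-high cells held fewer RNA molecules than galanin-low cells. Over batches, the median was 185660 UMIs per galanin-high cell, 320155 per cell of the middle part and 364110 per galanin-low cell. Batch medians ran from 77482 to 501997 UMIs on the galanin-high side and from 216410 to 557863 on the galanin-low side. Single deep cells weighed heavily in some galanin-low sums. In batch 20, 1 cell held 1182349 of the 2449047 UMIs summed. In batch 26 it was 1514406 of 3959141, in batch 30 1376957 of 2774192 and in batch 35 1439709 of 2547984. Each of these cells had the lowest Gal CPM of its batch, and they had 12232 to 14166 detected genes. Galanin-high cells had fewer UMIs in 9 of 10 batches, the exception being batch 35, and the log2 ratio averaged -1.12 ± 0.88 (SD, n = 10). The UMIs of a cell are the denominator of the Gal CPM that ranked it, and a UMI minimum was part of the gate, so these values are a description with no test. Genes detected per cell, which follow the UMIs, were 8405 and 10074, fewer in 9 of 10 batches. Mitochondrial transcripts took 0.932% of UMIs in galanin-high and 0.881% in galanin-low cells (exact two-sided sign-flip permutation test over batches, adjusted over 4 measures p = 0.00781, smallest unadjusted p possible 0.00195, higher in 9 of 10 batches). Within batches the mitochondrial log2 ratio, which was the value tested, averaged 0.29 ± 0.29 (SD, n = 10). Summed glial markers did not pass, at 1202 and 1207 CPM (adjusted p = 0.898, exact permutation test, lower in 5 of 10 batches). Both measures have the UMIs of the cell as their denominator, as Gal CPM has. Their p-values are therefore not independent of the ranking.

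**Figure D2:**
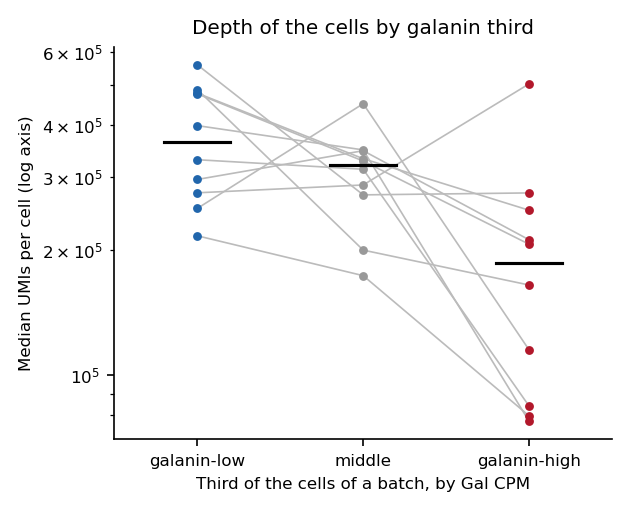
Median UMIs per cell (vertical log axis) in the 3 parts of the Gal ranking (horizontal axis); each point is 1 of 10 batches, grey lines join a batch and black bars are medians over batches. The medians were 364110 UMIs in galanin-low, 320155 in middle and 185660 in galanin-high cells.

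Because depth moved with galanin, 2 further comparisons of the same cells were made, both chosen after the data were seen. The first ranked the cells of a batch by UMIs alone and set the part with the fewest UMIs against the part with the most. It shared 24 of its 45 few-UMI cells with the galanin-high side and 5 with the galanin-low side. The second ranked by the Gal level that remained after its within-batch relation to UMIs was removed, called ranking at matched depth below. Its sides shared 28 and 30 of 45 cells with the galanin-high and galanin-low sides. There the galanin-high side had fewer UMIs in 3 of 10 batches, with medians of 330313 and 237737 UMIs. Despite the name, depth was thus not equal, but leaned the other way from the main comparison. The galanin contrast was narrower, at medians of 3065 and 1254 CPM. All 3 comparisons use the same cells, so their values are set side by side and are not independent.

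Of 8724 genes tested, 915 (10.5%) differed between galanin-high and galanin-low sums at an adjusted p under 0.05 in edgeR's quasi-likelihood test. They were 659 higher (7.55%) and 256 lower (2.93%) on the galanin-high side. Without the scaling factors that correct for composition, 358 were higher and 1045 lower, and the median log2 fold change of all genes moved from -0.08 to -0.31. Ranking by UMIs alone gave 1041 of 8209 genes (12.7%). Ranking at matched depth gave 9 of 8769 genes (0.103%). With the UMIs per cell as a term in the model 0 genes passed. There 278 were at an unadjusted p under 0.05, fewer than chance alone gives at that limit. That term moved with the side, so galanin and depth cannot be told apart in this fit. The main count ran from 651 without batch 26 to 1073 without batch 29. It was 396 with each cell thinned to 50000 UMIs and 355 with at least 100 CPM of Clmp and Kit.

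Abundant genes made up most of the higher calls. When the tested genes were split into 10 classes by mean CPM, the most abundant class held 574 of the 659 higher calls and 1 of the 256 lower calls. Its median log2 fold change was 0.43 galanin-high against galanin-low, 0.58 fewest against most UMIs and 0.10 at matched depth. In the least abundant class these medians were -0.34, -0.32 and -0.17. The 100 most abundant genes took a median of 14.8% of UMIs in galanin-high and 10.7% in galanin-low cells, and were higher on the galanin-high side in 10 of 10 batches. Gal, which ranked the cells, is among these 100, so part of this share follows from the ranking.

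**Figure D3:**
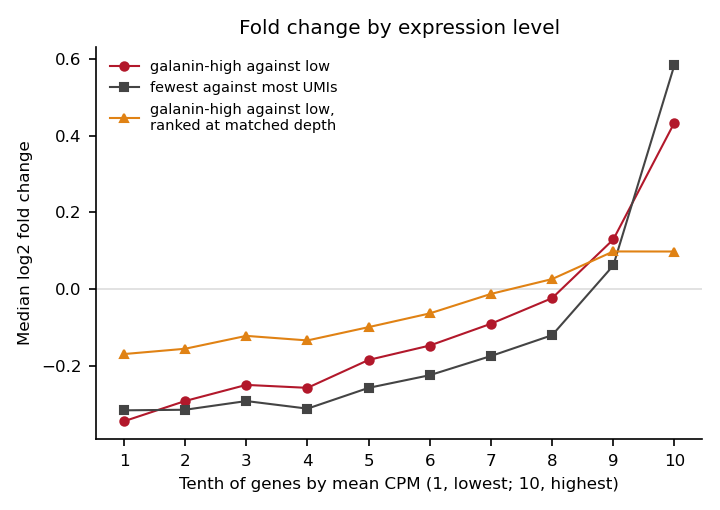
Median log2 fold change (vertical axis) in 10 classes of genes ordered by mean CPM (horizontal axis), for the galanin comparison, the comparison by UMIs and the galanin comparison ranked at matched depth. The most abundant class is at 0.43, 0.58 and 0.10.

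The injury-responsive transcription factor Atf3 was higher in galanin-high cells. It lay at 667 to 1627 CPM (median 1063) in galanin-high sums and at 466 to 759 CPM (median 584) in galanin-low sums. In each of the 10 batches the galanin-high sum was the higher one, although the ranges overlapped. The log2 fold change was 0.89 ± 0.11 (SE, edgeR adjusted p = 3.02e-05). It was 1.30 for the fewest against the most UMIs (adjusted p = 5.76e-10) and 0.13 at matched depth (adjusted p = 0.780). Of 17 tested transcription factors of the injury list, 5 including Atf3 were higher and 0 lower (median 0.21, all genes -0.08). Among all genes 7.55% were higher. Klf7, a factor needed for sensory axon growth, was higher by 0.77 ± 0.10 (adjusted p = 3e-05), Stat3, which carries gp130 cytokine signals, by 0.47 ± 0.10 (adjusted p = 0.00266) and Jun by 0.42 ± 0.11 (adjusted p = 0.0127). Smad1, a factor of bone morphogenetic protein signalling, was the fifth. At matched depth Klf7 was at 0.25, Stat3 at 0.14, Jun at 0.14 and Smad1 at 0.19. Sox11, which promotes regeneration, was at 0.21 ± 0.24 (adjusted p = 0.658). At matched depth 0 of the list passed, and the median was 0.10. With no scaling factors 3 were higher and 1 lower.

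Effectors of the injury response showed 16 of 34 tested members higher and 1 lower (median 0.53). For comparison, 7.55% of all genes were called higher, and 574 of 873 genes of the most abundant class. Gap43 lay at 1586 to 3607 CPM (median 2351) in galanin-high sums and at 981 to 1785 CPM (median 1250) in galanin-low sums. Every batch had the higher value on the galanin-high side, with a log2 fold change of 0.91 ± 0.12 (adjusted p = 3.82e-05). It was 1.27 for the fewest against the most UMIs and 0.21 at matched depth (adjusted p = 0.545). Cacna2d1, the calcium channel subunit bound by gabapentin, rose by 0.94 ± 0.10 (adjusted p = 1.94e-05) and had 0.34 at matched depth. The hyaluronan receptor Cd44 (0.86 ± 0.12) and the adhesion molecule Chl1 (0.78 ± 0.10) rose too, and were at 0.26 and 0.42 at matched depth. Sprr1a, usually raised with Atf3, did not pass at 0.44 ± 0.14 (adjusted p = 0.0522, higher in 7 of 10 batches). No member of the list passed at matched depth, where its median was 0.10. By UMIs alone 14 were higher and 1 lower.

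Growth cone and cytoskeleton genes had 23 of 45 tested members higher and 0 lower, at a median of 0.60. For comparison, 7.55% of all genes were called higher, and 574 of 873 genes of the most abundant class. Stmn1, a protein that destabilises microtubules, was at 1043 to 2086 CPM (median 1509) in galanin-high and 547 to 1036 CPM (median 719) in galanin-low sums. These ranges did not overlap, and the log2 fold change was 1.03 ± 0.12 (adjusted p = 2.16e-05). The beta-tubulins Tubb2b (0.95 ± 0.11) and Tubb5 (0.95 ± 0.11) rose as well, although tubulins are close copies whose reads may be shared. At matched depth both were at 0.07. The list's median was 0.78 by UMIs alone, where 25 members were higher, and 0.10 at matched depth, where 0 passed. With no scaling factors 21 members were higher and 2 lower.

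Of 7 tested genes of neuronal intermediate filaments 4 were higher and 0 lower (median 0.36, above 0 in 7 of 7). Among all genes 7.55% were higher, and 574 of 873 in the most abundant class. The filament protein Prph, typical of small sensory neurons, rose by 0.96 ± 0.12 (adjusted p = 2.88e-05) and the linker Dst by 0.80 ± 0.10 (adjusted p = 2.16e-05). The medium neurofilament Nefm rose by 0.36 ± 0.10 (adjusted p = 0.0250), and did not pass without batch 26, 29, 31 or 34, each left out singly. In contrast, the light neurofilament Nefl was at 0.04 ± 0.12 (adjusted p = 0.892) and the heavy neurofilament Nefh at 0.05 ± 0.14 (adjusted p = 0.887). With at least 100 CPM of Clmp and Kit, Nefh passed at 0.62 (adjusted p = 0.0133). At matched depth Nefl was lower, by -0.61 (adjusted p = 0.0257). It was at 0.69 in cells with the fewest UMIs (adjusted p = 0.000484). The galanin-high side at matched depth had the higher median of UMIs, 330313 against 237737. Galanin and depth therefore cannot be told apart in the Nefl value. Nefm was at -0.40 at matched depth and did not pass (adjusted p = 0.217). Prph was at 0.23 and Dst at 0.14 there. The list had 0 higher and 1 lower at matched depth (median -0.03), and 6 higher by UMIs alone (median 0.69).

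**Figure D4:**
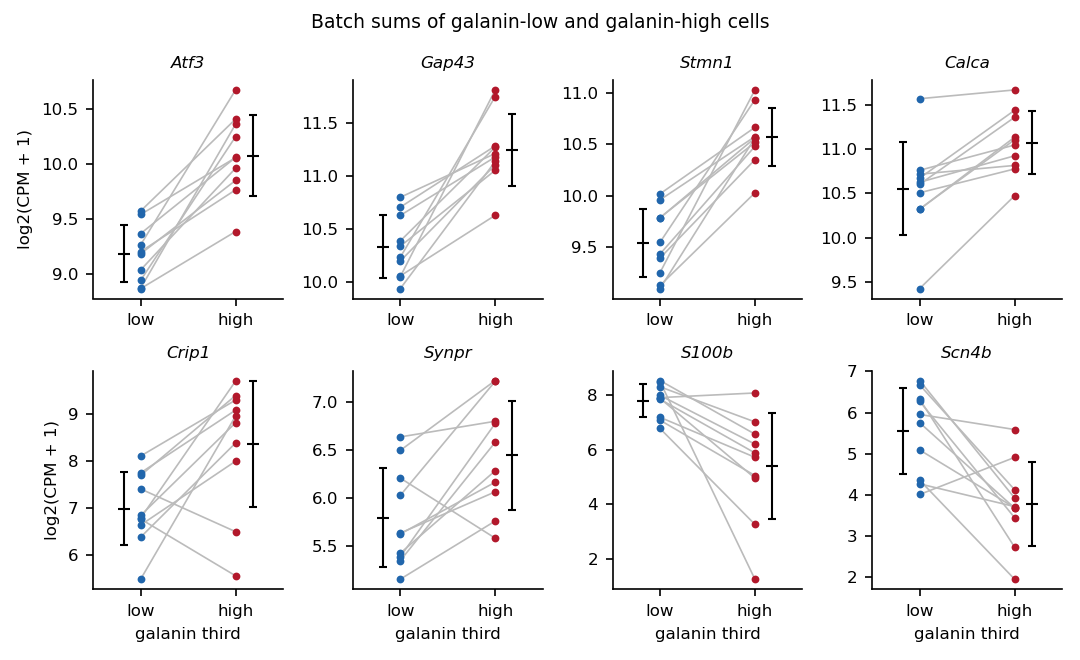
Batch sums of galanin-low and galanin-high cells (horizontal axis) for 8 genes in log2(CPM + 1) (vertical axis, a different range in each panel); each point is a batch, lines join a batch and black bars are mean ± SD over 10 batches. Atf3, Gap43, Stmn1 and Calca were higher in galanin-high sums of 10 of 10 batches, and S100b and Scn4b in 1 of 10.

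Peptides other than galanin gave a mixed picture. Of 11 tested neuropeptide genes 2 were higher and 0 lower, with a median of -0.06, against 7.55% of all genes higher. Calca was at 1419 to 3253 CPM (median 2157) in galanin-high and 685 to 3037 CPM (median 1565) in galanin-low sums. It was higher by 0.52 ± 0.11 (adjusted p = 0.00190, 10 of 10 batches), and by 0.29 at matched depth (adjusted p = 0.622). Among cells with at least 100 CPM of Clmp and Kit it was at 0.22 (adjusted p = 0.526). Cck, the precursor of cholecystokinin, was at 207 to 926 CPM (median 474) against 52.2 to 361 CPM (median 188). It rose by 1.24 ± 0.28 (adjusted p = 0.00352, 9 of 10 batches). Unlike Calca, Cck had a small value by UMIs alone, 0.14 (adjusted p = 0.532), and kept a like size at matched depth, 1.16 (adjusted p = 0.196), where it did not pass. With at least 100 CPM of Clmp and Kit it was at 0.68 (adjusted p = 0.308).

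The remaining peptides did not pass. Tac1 was at 0.14 ± 0.15 (adjusted p = 0.625), Adcyap1 at 0.25 ± 0.12 (adjusted p = 0.220) and Vip, the vasoactive intestinal peptide, at 0.19 ± 0.44 (adjusted p = 0.844). Npy, a peptide that also appears after nerve injury, had 0 UMIs in all galanin-high and 1 in all galanin-low sums and was too low to be tested. Of the galanin receptors Galr1 was tested and was at 0.25 ± 0.37 (adjusted p = 0.746). Galr3 had 0 UMIs on both sides. Granins and peptide-processing genes had 6 of 26 members higher and 0 lower (median 0.13), against 7.55% of all genes higher. They were led by Ptprn, a membrane protein of dense-core vesicles, at 0.86 ± 0.11 (adjusted p = 2.16e-05). Ptprn was at 1.26 by UMIs alone and 0.19 at matched depth.

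The lists of nociceptor receptors and channels had calls in both directions. Of 12 tested receptors and adaptors of the neurotrophin and GDNF families 2 were higher and 1 lower (median -0.30), against 10.5% of all genes in either direction, and 0 passed at matched depth (median -0.17). Ret, the signalling receptor of the GDNF family, fell by 0.85 on the log2 scale (SE 0.23, adjusted p = 0.0148). Its value was -0.26 at matched depth (adjusted p = 0.630). Gfra3, the artemin receptor, rose by 0.54 ± 0.15 (adjusted p = 0.0211) and was at 0.33 at matched depth (adjusted p = 0.548). It did not pass with thinned cells (0.24, adjusted p = 0.317), without the batch block or without batch 20, 22, 23, 26 or 30, each left out singly. The other higher gene of this list was the ubiquitin ligase adaptor Ndfip1. Of 35 voltage-gated channel genes 1 was higher and 3 were lower (median -0.29, and -0.03 at matched depth). The lower ones were Scn4b, Kcnd1 and Scn10a, the sodium channel Nav1.8. Among heat, acid, ATP and mechanical channels 1 of 12 was higher, the acid-sensing Asic3 at 0.54 ± 0.14 (adjusted p = 0.0101), which was at 0.02 by UMIs alone and 0.76 at matched depth (adjusted p = 0.320). Trpv1, the capsaicin receptor, had 22 UMIs in galanin-high and 235 in galanin-low sums, or means of 3.50 and 10.2 CPM, and was too low to be tested. Npy1r, an NPY receptor, rose by 0.80 ± 0.24 (adjusted p = 0.0292), the only 1 of 14 nociceptor G protein-coupled receptors that passed. It was at 0.59 at matched depth (adjusted p = 0.326). It did not pass by DESeq2 (adjusted p = 0.0805), without the batch block (adjusted p = 0.0648) or without batch 20, 22, 23, 26, 30 or 35, each left out singly. Without scaling factors Gfra3 was at 0.31 (adjusted p = 0.121), Asic3 at 0.31 (adjusted p = 0.103) and Npy1r at 0.56 (adjusted p = 0.0932), so none of the 3 passed, and 6 voltage-gated channel genes were lower.

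Many genes of energy metabolism were higher in galanin-high sums. Of 63 nuclear-encoded genes of oxidative phosphorylation 33 were higher and 0 lower (median 0.37), and of 13 mitochondrially encoded genes 9 were higher and 0 lower (median 0.56). Examples are the cytochrome oxidase subunit Cox7c (0.77 ± 0.10, adjusted p = 3.54e-05) and the complex I subunit Mt-nd1 (0.74 ± 0.11, adjusted p = 4.82e-05). For comparison, 7.55% of all genes were called higher, and 574 of 873 genes of the most abundant class. By UMIs alone the medians of these lists were 0.51 and 0.98. At matched depth they were 0.12 and 0.03, and 0 members passed. Without scaling factors 19 members of the nuclear-encoded list were higher and 1 lower.

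Cholesterol synthesis differed from energy metabolism in its median at matched depth. Of 22 tested genes 10 were higher and 0 lower (median 0.41), against 7.55% of all genes higher and 574 of 873 in the most abundant class. Among the 10 were Fdps, farnesyl diphosphate synthase, at 0.82 ± 0.11 (adjusted p = 3.08e-05) and Hmgcs1, an early enzyme of the pathway, at 0.76 ± 0.11 (adjusted p = 4.82e-05). The list's median was 0.28 by UMIs alone and 0.34 at matched depth, against -0.01 for all genes there, and 0 members passed. In the smaller batches its median was -0.11, with 7 of 19 members above 0, against -0.17 for all genes. The difference between the cholesterol and energy lists was not tested. Hmgcs1 was at 0.46 at matched depth (adjusted p = 0.107). In the P2rx3 cells described below, 0 of 21 members were higher and 1 lower between galanin-high and galanin-low cells.

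Other lists were split. Among all genes 7.55% were called higher and 2.93% lower, and 574 of 873 genes of the most abundant class were called higher. Integrins and matrix receptors had 7 of 16 higher, among them Cd44, and 1 lower, the syndecan Sdc2 (median 0.35, and 0.11 at matched depth). Sdc2 (-0.86 ± 0.26, adjusted p = 0.0367) did not pass without batch 20, 22, 26, 29, 34 or 35, each left out singly. Stress genes of the endoplasmic reticulum and heat shock had 7 of 30 higher, such as the chaperone Hspa8 (0.73 ± 0.11), and 1 lower, the stress kinase Eif2ak3 (median 0.12), which did not pass without batch 30. At matched depth Hspa8 was at -0.02 and the median of the list at -0.07, with 11 of 30 above 0. With no scaling factors this list turned to 5 higher and 5 lower. Guidance receptors had 3 of 21 higher, among them Chl1, and 3 lower, Nrp1, Nrp2 and the ephrin receptor Epha5 at -1.06 ± 0.33 (adjusted p = 0.0386). Epha5 did not pass without batch 20, 22, 23, 26, 30, 34 or 35, each left out singly, and was at -0.60 at matched depth (adjusted p = 0.513), where the median of the list was 0.18. Nrp1 and Nrp2 are semaphorin co-receptors. Without scaling factors 2 guidance receptors were higher and 6 lower. Of 15 genes of gp130 cytokine signalling 2 were higher, Stat3 and the leukaemia inhibitory factor receptor Lifr, while 0 were higher and 2 lower without scaling factors. Immediate-early genes had 1 of 12 higher, which was Atf3, a share near that of all genes.

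**Figure D5:**
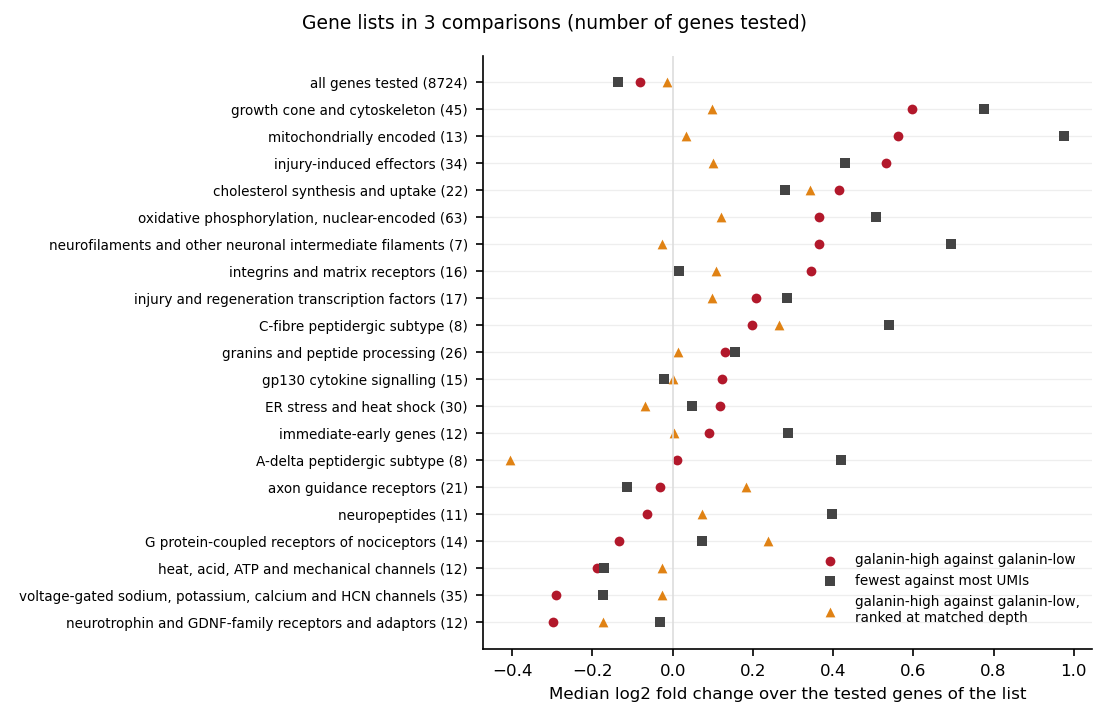
Median log2 fold change (horizontal axis) over the tested genes of each list (vertical axis, number of genes tested in parentheses) in the galanin comparison, the comparison by UMIs and the galanin comparison ranked at matched depth. The growth cone list is at 0.60, 0.78 and 0.10, and cholesterol synthesis at 0.41, 0.28 and 0.34.

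Several genes outside the lists had larger fold changes than Atf3 and Gap43. Crabp1, which binds retinoic acid, was at 3.14 to 133 CPM (median 53.6) in galanin-high and 0 to 72.9 CPM (median 9.14) in galanin-low sums. It was higher by 1.96 ± 0.59 (adjusted p = 0.0316, 8 of 10 batches), and it did not pass without batch 20, 23, 26, 30, 31 or 34, each left out singly. Pcp4, a small modulator of calmodulin, was at 184 to 823 CPM (median 632) against 109 to 528 CPM (median 154). It rose by 1.62 ± 0.26 (adjusted p = 0.000108, 9 of 10 batches), and by 1.73 in the cells with the fewest UMIs, but was at 0.55 at matched depth (adjusted p = 0.588). Tgfbi, a matrix protein, rose by 1.28 ± 0.19 (adjusted p = 6.01e-05) and the calcium pump Atp2b4 by 1.23 ± 0.17 (adjusted p = 3.82e-05). At matched depth Tgfbi was at 0.96 (adjusted p = 0.0816) and Atp2b4 at 0.67 (adjusted p = 0.143). The RNA-binding protein Celf6 (1.08 ± 0.23), the muscle LIM protein Csrp3 (1.01 ± 0.15) and the zinc-finger factor Plagl1 (1.03 ± 0.27) also rose, and were at 0.92, 0.39 and 0.22 at matched depth.

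Several of the genes that fell were of low level. Incenp, a chromosomal passenger protein, was at 1.73 to 28.2 CPM (median 7.19) in galanin-high and 3.47 to 101 CPM (median 51.5) in galanin-low sums. Its log2 fold change was -2.68 ± 0.41 (adjusted p = 9.48e-05). The galanin-low sums highest in Incenp were those of batches 35 (101 CPM), 30 (82.1), 26 (79.6) and 20 (74.4). These are the batches with the single deep cells given above. No other batch exceeded 52.2 CPM, the level of batch 25. The part of these deep cells in the fall of Incenp was not tested. Ckmt1, a mitochondrial creatine kinase, was at 1.57 to 23.5 CPM against 9.09 to 97.8 CPM, lower in 10 of 10 batches (-2.62 ± 0.36, adjusted p = 4.03e-05). No galanin-high cell reached 50 CPM of Ckmt1, against 9 of 45 galanin-low cells in 7 batches. Incenp reached 50 CPM in 2 galanin-high and 17 galanin-low cells. The growth factor pleiotrophin (Ptn) fell by 1.80 on the log2 scale (SE 0.30, adjusted p = 0.000201) and was lower in 10 of 10 batches, and Alkal2, a ligand of the kinase ALK, was at -2.21 ± 0.51 (adjusted p = 0.00485). The ETS factor Etv5 was at -1.80 ± 0.41 (adjusted p = 0.00452). At matched depth Incenp was at -2.38 (adjusted p = 0.0631), Ckmt1 at -2.25 (adjusted p = 0.148), Ptn at -2.08 (adjusted p = 0.0625), Alkal2 at -0.39 and Etv5 at -1.15, and none of them passed.

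The 9 genes that passed at matched depth were Crip1 and Synpr on the higher side and S100b, Scn4b, Pcdh9, Susd2, Cd274, Phgdh and Nefl on the lower side. They were named after their values were seen. All but Phgdh and Nefl also passed in the main comparison. Those 7 did not pass by UMIs alone, where they ran from 0.29 for Crip1 to -0.81 for Susd2.

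Crip1, a small LIM-domain protein, was at 46.3 to 824 CPM (median 470) in galanin-high and 44.0 to 274 CPM (median 112) in galanin-low sums. It was higher in 8 of 10 batches, the exceptions being batches 23 and 34. The log2 fold change was 1.49 ± 0.30 (adjusted p = 0.00130), and 1.45 at matched depth (adjusted p = 0.00421). The call was lost with the ranking divided into 2 parts, at 0.62 (adjusted p = 0.123), and with at least 100 CPM of Clmp and Kit, at 1.31 (adjusted p = 0.109). Crip1 reached 50 CPM in 31 of 45 galanin-high, 43 of 57 middle and 31 of 45 galanin-low cells, with median levels of 87.7, 116 and 73.3 CPM per cell and highest levels of 1598, 1190 and 1027 CPM. Synpr, the synaptic vesicle protein synaptoporin, was at 47.0 to 148 CPM (median 85.8) against 34.8 to 98.4 CPM (median 48.7). It was higher by 0.71 ± 0.18 (adjusted p = 0.0125, 9 of 10 batches), and by 0.86 at matched depth (adjusted p = 0.0257). Without batch 26 Synpr was at 0.62 (adjusted p = 0.0528), and it was lost under 10 of 30 alternatives in all. It reached 50 CPM in 31 galanin-high and 29 galanin-low cells, at medians of 72.8 and 67.4 CPM per cell.

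S100b, a calcium-binding protein of large myelinated neurons and of glia, was at 1.40 to 269 CPM (median 54.9) in galanin-high and 109 to 369 CPM (median 237) in galanin-low sums. Only batch 30 had the higher value on the galanin-high side. The log2 fold change was -2.05 ± 0.33 (adjusted p = 0.000146), and -2.59 at matched depth (adjusted p = 0.000109). It reached 50 CPM in 15 of 45 galanin-high cells, 18 of 57 middle cells and 22 of 45 galanin-low cells. Median levels per cell were 34.7, 28.5 and 47.5 CPM, and highest levels 547, 635 and 1219 CPM. Among the glial markers 1 other of the 6 tested passed, Pmp22, which was higher.

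Scn4b, the beta-4 subunit of sodium channels that is typical of myelinated neurons, was at 2.85 to 47.0 CPM (median 12.0) against 15.0 to 109 CPM (median 56.9). It was lower in 9 of 10 batches (-1.91 ± 0.36, adjusted p = 0.000734), and at -2.57 at matched depth (adjusted p = 0.0129). It reached 50 CPM in 3 galanin-high cells, 1 middle cell and 12 galanin-low cells, the latter in 9 batches, with up to 1013 CPM in 1 cell. Median levels per cell were 8.98, 9.74 and 11.9 CPM. With at least 100 CPM of Clmp and Kit neither gene passed, at -0.91 for S100b (adjusted p = 0.336) and -0.94 for Scn4b (adjusted p = 0.384). S100b, Scn4b, Nefl and Nefm belong to the list of A-delta peptidergic genes. Of 8 tested 1 was higher and 2 lower in the main comparison, against 10.5% of all genes in either direction. At matched depth 0 of 7 tested were higher and 3 lower, with a median of -0.40, against 0.103% of all genes in either direction. These 3 were S100b, Scn4b and Nefl, already named because they passed there, so the count adds nothing separate.

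The other genes that fell at matched depth were of low level. The protocadherin Pcdh9 was at -3.03 there (adjusted p = 0.0116), the membrane protein Susd2 at -1.69 (adjusted p = 0.0345), Cd274, the immune checkpoint ligand PD-L1, at -1.46 (adjusted p = 0.0324) and Phgdh, the first enzyme of serine synthesis, at -1.85 (adjusted p = 0.0159). Cd274 reached 50 CPM in 7 galanin-high and 21 galanin-low cells. Summed neurofilament-neuron markers were at 149 to 443 CPM in galanin-high and 161 to 1287 CPM in galanin-low sums, higher on the galanin-high side in 2 of 10 batches. Summed cold-neuron markers were at 2.58 to 16.1 and 1.14 to 94.6 CPM, and summed pruriceptor markers at 8.79 to 52.3 and 19.4 to 203 CPM, each higher on the galanin-high side in 1 of 10 batches. The part of these other neuron types in the lower calls was not tested.

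The genes whose level across single cells was most like that of Gal were abundant ones. Over 147 cells and 4296 genes, ranked within batches, Tmsb4x, which binds actin monomers, had a rank correlation with Gal of 0.62, Stmn1 of 0.58, Anxa2 of 0.57 and Gap43 of 0.57. The prolyl isomerase Fkbp1a (0.57) and Stmn3 (0.55) came next. The lowest values were -0.47 for Golph3, a Golgi protein, and -0.46 for Nap1l5. UMIs per cell had a rank correlation of -0.50 with Gal over the same cells. With each cell thinned to 50000 UMIs the correlations were 0.59 for Tmsb4x, 0.57 for Stmn1, 0.52 for Gap43 and -0.46 for Golph3. These are descriptions over cells that share batches.

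In the 5 smaller batches no gene passed (0 of 5257, 0%), with 287 at an unadjusted p under 0.05. That is about the number that chance alone gives at this limit. Each side held 8 cells in all, at Gal medians of 4977 and 591 CPM. Galanin-high cells had fewer UMIs in 5 of 5 batches, with medians of 85123 and 347328. Of the 659 higher genes of the main comparison 653 were measured there and 498 (76.3%) had the same sign, against 37.7% of all genes with a positive sign. Of the 256 lower genes 114 were measured and 89 (78.1%) had the same sign, against 62.3% of all genes. Most higher calls were abundant genes, and genes of like abundance were not set beside them. Galanin and depth therefore cannot be told apart in these shares. Atf3 was at 0.40, Gap43 at 1.03, Stmn1 at 0.97 and Crip1 at 1.32 there, while Calca was at -0.05 and Synpr at -0.14. S100b was at -0.90.

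P2rx3 cells were divided by galanin in the same way, with 89 cells per side in 15 batches, among them the 10 of the Clmp and Kit comparison, and Gal medians of 2309 and 629 CPM. Of 9265 genes 420 (4.53%) passed, 222 higher and 198 lower. Galanin-high P2rx3 cells had fewer UMIs in 12 of 15 batches, with medians of 179618 and 347537. Of the 657 higher genes of the Clmp and Kit cells measured there, 118 passed in the same direction, and of the 244 lower genes 14 did. Atf3 rose by 0.51 (adjusted p = 0.0271), Gap43 by 0.65 (adjusted p = 0.0112) and Stmn1 by 0.71 (adjusted p = 0.00668). Transcription factors of the injury list had 1 of 17 members higher and 0 lower, with 7 above 0. Their median was -0.18, against -0.006 for all genes. Injury effectors had 11 of 33 members higher and 0 lower (median 0.39). Growth cone genes had 16 of 44 members higher and 1 lower (median 0.39). Calca did not pass in these cells, at 0.04 (adjusted p = 0.949). Sprr1a rose by 0.86 (adjusted p = 0.0446).

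The 2 classes differed in their galanin contrast for 8 of 9292 genes (0.0861%), by an interaction term over 10 batches with both. The value of each class below comes from its own fit, over 10 and 15 batches, so that the values do not subtract to the difference of the interaction fit. Cd44 was higher with galanin in Clmp and Kit cells (0.86) and at -0.11 in P2rx3 cells, a difference of 1.17 ± 0.16 (SE, adjusted p = 0.000566). Synpr was at 0.71 and -0.64, a difference of 1.34 ± 0.27 (adjusted p = 0.0394). Scn4b was at -1.91 and 0.26 (difference -2.11 ± 0.42, adjusted p = 0.0394) and Incenp at -2.68 and -0.54 (difference -2.25 ± 0.46, adjusted p = 0.0436). The others were Fbxo2, a ubiquitin ligase subunit, the anion exchanger Slc4a2 and 2 unnamed genes, AC134224.1 and AC134224.3. For Atf3 (0.46, adjusted p = 0.268) and Gap43 (0.39, adjusted p = 0.413) the difference between classes did not pass.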

How the data were processed

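Per the labels' protocols, single neurons were picked, amplified with cell barcodes and UMIs and sequenced as 3' ends, in 17 batches. Per the submitters' processing notes, UMI-tools, STAR, featureCounts, Subread and SAMtools were used with Rnor_6.0. Their settings, including strand, are not given in the sources used here. What the authors deposited are counts of UMIs for 32883 gene rows in each cell, and all were whole numbers. No other 2 cells had identical counts, and no cell name occurred in 2 batches.

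UMIs were summed per batch and side, and the sums were fitted by the quasi-likelihood F-test of edgeR 4.0.16 with terms for batch and side, after TMM scaling and after filterByExpr had dropped genes under a minimum count of 10. A gene passed at a Benjamini-Hochberg adjusted p under 0.05 over all genes tested. Standard errors were taken as |log2 fold change| over the root of F. Batch is a block in every fit, since both sides come from the same batch. TMM-scaled totals underlie the CPM of summed genes, whereas the CPM of cells, markers and Gal, Clmp, Kit, Sst and Nppb are plain. Those 5 genes were left out of counts of calls. The fit was tested on simulated counts, with 50 genes changed by each of 4 amounts. It called 68% of genes with a log2 change of 1 and 52% with -1. For changes of 0.5 and -0.5 it called 12% and 18%, and 7 calls in the 8729 genes were false. Genes that did not pass can therefore hold changes of this size. No doublet caller was run on these singly picked cells.

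Named genes had to pass, to have a symbol, to reach 50 CPM on their higher side and to keep 1 direction in 80% of batches or more. The 12 that moved most each way were taken, with up to 3 members per list and direction and a set of fixed genes, of which the text gives a part. Genes with a call at matched depth or between classes were named after their values were seen. The members, lists and named genes were chosen with earlier results of these data known. Galr2 is not among the gene names used here. Some genes that the naming rule or the lists hold are not reported here.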

Additional observations from a re-analysis of the deposited data

Results flagged for a closer look

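Of 74 sets of 10 batch values checked, 8 held a batch that lay far from the other 9; chance alone gives about 1 in 20. Values are log2 ratios of galanin-high to galanin-low sums with 1 CPM added. Batch 23, with 3 cells per side, was the far batch for 5 genes: S100b at -7.23 (others -3.51 to 0.17), Tm4sf1, a membrane protein, at -6.33 (others -3.20 to 0.25), Celf6 at 3.45 (others -0.02 to 1.58), Asic3 at -0.66 (others 0.14 to 1.01) and Nefm at -0.36 (others 0.21 to 0.76). Chl1 was at 1.39 in batch 30 (others 0.35 to 0.88). Cpne6, a calcium-dependent membrane-binding protein, was at 3.18 in batch 29 (others -4.17 to -0.47), and Tac1 was at -1.45 in batch 25 (others -0.11 to 0.70).

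For 8 genes the galanin contrast differed between Clmp and Kit cells and P2rx3 cells by the interaction test. The differences of the log2 fold changes were 1.17 for Cd44, 1.34 for Synpr, 0.83 for AC134224.1, 0.71 for AC134224.3, -1.63 for Fbxo2, -1.90 for Slc4a2, -2.11 for Scn4b and -2.25 for Incenp. Both classes had fewer UMIs on the galanin-high side, but not by the same amount. The log2 ratio averaged -1.12 in Clmp and Kit cells and -0.81 in P2rx3 cells. Neither the P2rx3 comparison nor the interaction was run at matched depth.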

How the results depend on the processing

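The count of 915 genes kept within 1.5 times its size with RLE factors (932), DESeq2 (1179), limma voom (1226), no filter (1164), rankings divided into 2 or 4 parts (690 and 766) and no replicate block (728). It was 1473 with a bias-adjusted deviance, 396 with cells thinned to 50000 UMIs, 355 with at least 100 CPM of Clmp and Kit, 1403 (358 higher, 1045 lower) without scaling factors, 0 with UMIs per cell as a term, 9 at matched depth and 7 at matched depth with thinned cells. Leaving out batches gave 651 to 1073. In the smaller batches the bias-adjusted deviance gave 3 genes, and leaving out batches gave 0 to 2 (the 2 without batch 32). In P2rx3 cells thinning gave 178 and the bias-adjusted deviance 869 in place of 420. Between classes RLE factors gave 14 and the bias-adjusted deviance 205 in place of 8. The cause of these moves was not tested. Thinning leaves fewer UMIs and also gives every cell the same number, and a higher gate leaves fewer cells and ranks them anew. UMIs, genes and mitochondrial share per cell kept their direction, and the last its call, under each alternative run. The glial log2 ratio (-0.01) was 0.037 with 2 parts per ranking and ran from -0.070 to 0.046 on leaving out a batch, being above 0 without batches 23, 26 and 35. Glial levels under 1000 CPM left 42 cells and no batch of 9, so this limit was not run.

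Of 61 named called genes, 61 passed with RLE factors, 60 with DESeq2 and with limma voom, 51 without the replicate block, 52 without scaling factors, 32 of 45 tested with thinned cells, 31 of 59 with the 100 CPM gate, 7 at matched depth and 0 with UMIs as a term. Signs turned at matched depth for Adcyap1 (-0.17), Hspa8 (-0.019), the ubiquitin ligase adaptor Ndfip1 (-0.071), Nefh (-0.25), Nefl (-0.61), Nefm (-0.40) and Sox11 (-0.16). With cells thinned as well they turned for AC134224.1 (-0.17), AC134224.3 (-0.21), Adcyap1 (-0.19), Atf3 (-0.032), Cox7c (-0.063), Hspa8 (-0.16), Jun (-0.067), Mt-nd1 (-0.098), Ndfip1 (-0.20), Nefh (-0.26), Nefl (-0.65), Nefm (-0.46), Ptprn (-0.034), Sprr1a (-0.017), Tubb2b (-0.12) and Tubb5 (-0.042). The other turns were in genes that had not passed. Galr1 was at -0.91 with UMIs as a term, -0.15 with limma voom, -0.15 with a bias-adjusted deviance, -0.41 with the 100 CPM gate, -0.042 with 12 and -0.12 with 6 cells per batch. Adcyap1 was at -0.40 with UMIs as a term. Nefh and Nefl were at -0.029 and -0.026 with 12 cells per batch, -0.0074 and -0.018 at a minimum count of 30, -0.14 and -0.043 with thinned cells, -0.16 and -0.092 with 4 parts, -0.18 and -0.20 without scaling factors and -0.062 and -0.0020 without batch 29. Nefh was at -0.0093 without the replicate block, -0.038 without batch 35 and up to 0.16 on leaving out another batch. Nefl was at -0.047 with 100000 UMIs per cell, -0.0040 with no limit on Sst and Nppb, -0.053 without batch 31 and up to 0.11 on leaving out another batch. Tac1 was at -0.0035 with thinned cells, -0.10 with 2 parts, -0.10 with the 100 CPM gate, -0.053 with 6 cells per batch and -0.088 without scaling factors. Vip was at -0.0090 with 6 cells per batch, -0.028 without scaling factors and -0.055, -0.14 and -0.044 without batches 20, 22 and 30, the other batches giving up to 0.51. Sox11 was at -0.026 without scaling factors. Depth limits the low genes: 8724 of 32883 gene rows could be tested.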
